A study of Drosophila melanogaster with 8 samples.

Results

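The *Drosophila melanogaster* genes *Eip74EF*, *Eip75B* and *br* are early genes of the response to the steroid hormone ecdysone, and binding of the leg transcription factors Distal-less (Dll) and Sp1 around them was examined in larval leg imaginal discs by ChIP-seq. Members were peaks of the 2 deposited lists and were chosen by position: 119 of 22169 peaks, of which 67 came from the 12319 Dll peaks and 52 from the 9850 Sp1 peaks. For *Eip74EF* they were all peaks within 20 kb of a region assigned to that gene as nearest gene by the study, which intersected Dll peaks, Sp1 peaks, open chromatin and motif matches. For *Eip75B* and *br* they were all peaks that overlapped a fixed interval, from 17935000 to 18075000 on chromosome 3L and from 1465000 to 1600000 on chromosome X (dm3). The *Eip74EF* peaks were thus chosen with the overlap of both factors in view, so the number of peaks and their overlap there are descriptions, and no test was made on them.

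In ChIP-seq, an antibody pulls down a protein with the DNA it sits on, and this DNA is sequenced beside input chromatin that saw no antibody. Chromatin came from leg discs of wandering L3 larvae, the last larval stage, in pools of 100 larvae with all 6 leg discs taken from each. Dll was precipitated from *yw* larvae with an anti-Dll antibody, and Sp1 from larvae of the genotype Sp1-GFP (BAC) with an anti-GFP antibody, each with 3 ChIP libraries and 1 input library in the labels. The tagged Sp1 is made from a BAC transgene at a landing site (VK00033), so the 2 lists differ in genotype, antibody and protein at once, which cannot be told apart. Peaks were called on merged libraries. Each peak thus has 1 value without a replicate error, and the read depth is unknown. That value is the authors' −log10 q value, here called the score, and scores were turned into percentile ranks within their own list, where 100 is the strongest peak. Neither list goes below a score of 4, so weaker binding was not measurable where no peak is listed.

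Ecdysone pulses at the end of larval life start metamorphosis. The hormone binds a nuclear receptor made of EcR and Usp, which switches on the early genes, and their products, transcription factors themselves, control later genes. *Eip74EF* encodes ETS domain proteins, *Eip75B* encodes nuclear receptors that bind heme, and *br* (*broad*) encodes a family of BTB zinc finger proteins that imaginal discs need to evert and elongate into legs. Dll is the homeodomain protein that specifies distal leg, and Sp1 is a zinc finger protein of the Sp family that promotes leg growth.

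Peaks of both factors were found at each of the 3 loci. *Eip74EF* had 18 Dll and 17 Sp1 peaks in 89003 bp, *Eip75B* had 32 and 23 in 140000 bp, and *br* had 17 and 12 in 135000 bp. Dll peaks numbered 20.2 per 100 kb at *Eip74EF* (exact Poisson interval 12.0 to 32.0), 22.9 at *Eip75B* (15.6 to 32.3) and 12.6 at *br* (7.34 to 20.2). The rest of chromosome 3L had 10.7 Dll peaks per 100 kb beside *Eip74EF* and 10.6 beside *Eip75B*, and the rest of the X had 9.34. For Sp1 the densities were 19.1, 16.4 and 8.89 per 100 kb, against 8.60, 8.59 and 6.61 on the rest of the arm. The ratio for Sp1 was 2.22 at *Eip74EF*, 1.91 at *Eip75B* and 1.34 at *br*, where the interval was 4.59 to 15.5 per 100 kb. The density at *Eip74EF* rests on the peaks that chose it, and the other loci were put forward with the peaks known, so these ratios are descriptions. In intervals of the same width on the same arm, the median number of Dll and Sp1 peaks was 8 and 6 for *Eip74EF*, 14 and 11 for *Eip75B*, and 10 and 8 for *br*. Such intervals ran from 0 to 42 Dll and 0 to 31 Sp1 peaks at the width of *Eip74EF*, from 0 to 54 and 0 to 42 at that of *Eip75B*, and from 0 to 48 and 0 to 56 at that of *br*, so each locus lay inside the range of its arm. All intervals given here are for counting error alone, and neighbouring peaks are not independent of each other.

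**Figure D1:**
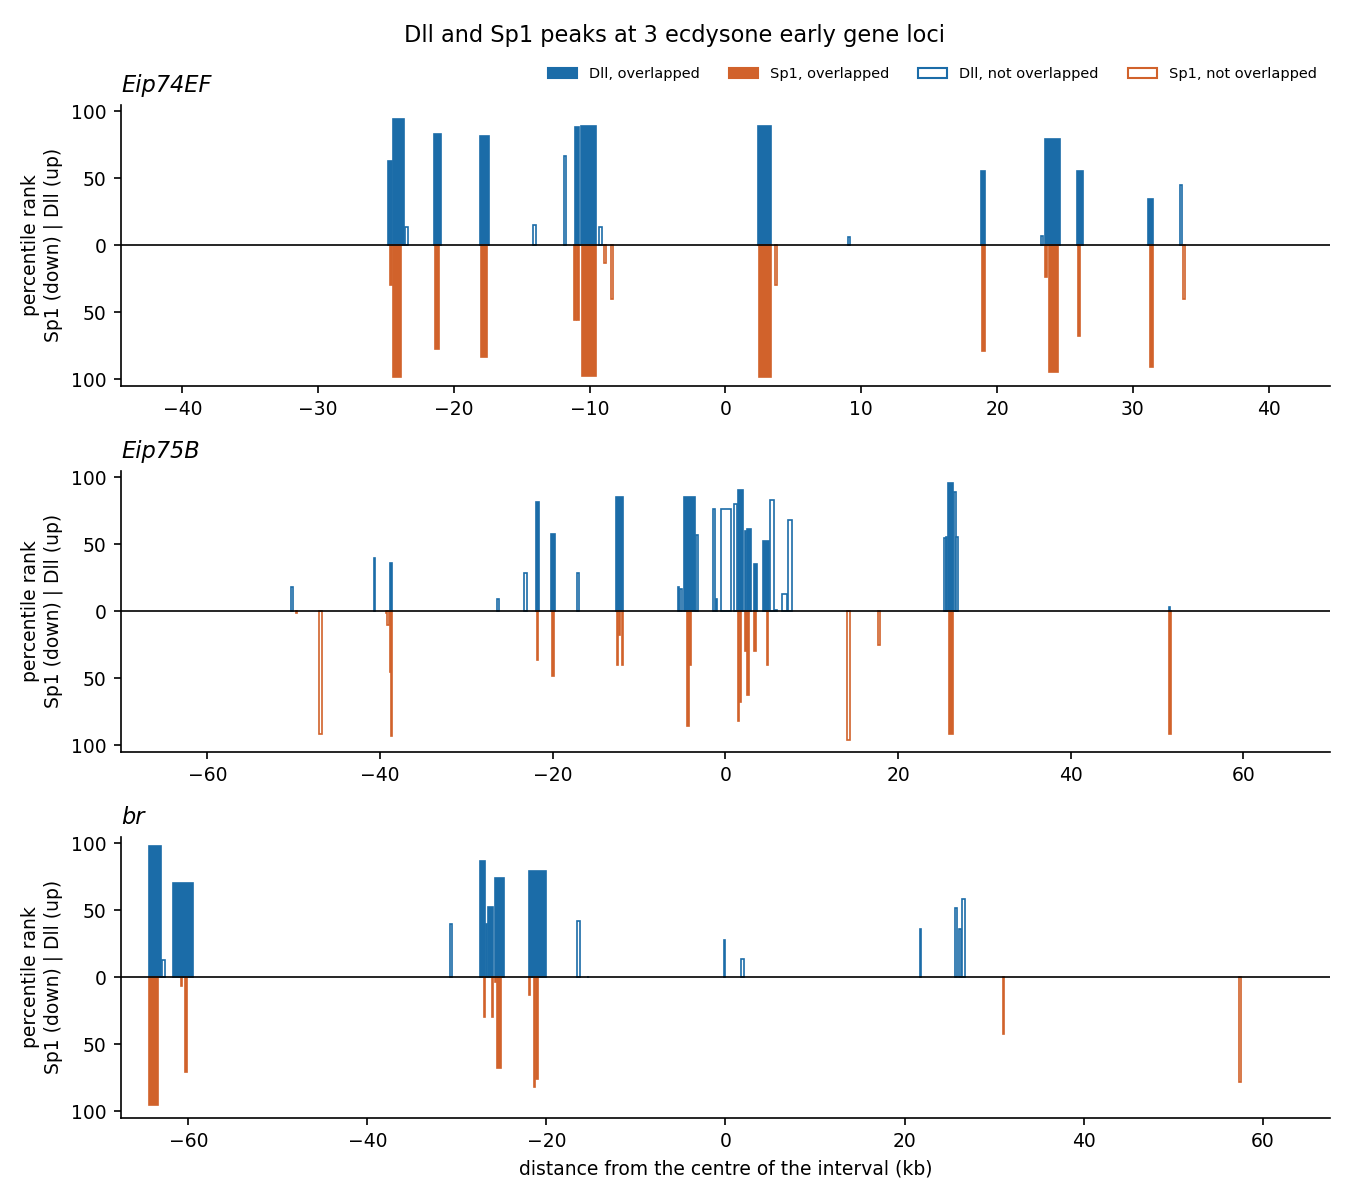
Peaks at the 3 loci, drawn by position in kb from the centre of each interval (horizontal axis) and by percentile rank within their own list (vertical axis), with Dll above the line and Sp1 below it. Filled bars overlap a peak of the other factor and open bars do not. Bar width is peak length, and peaks under 0.15 kb are widened to stay visible. Strong Sp1 bars face Dll bars at *Eip74EF*, and open Dll bars crowd the middle of *Eip75B*. At *br*, Dll bars past the last overlapping pair, all open by that choice of limit, have a median rank of 36.4. Those up to it have a median rank of 70.0.

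At *Eip74EF*, Dll and Sp1 peaks overlapped in 13 pairs, and 5 of the 17 Sp1 peaks were in the top 10% of their list, as was 1 of the 18 Dll peaks. That Dll peak and 4 of the 5 Sp1 peaks hold regions used to choose the locus, so these counts are descriptions. The peaks of the locus took up 58616 bp, from 17556289 to 17614905 on chromosome 3L. Of the 18 Dll peaks, 11 overlapped an Sp1 peak (61.1%, 95% Wilson interval 38.6% to 79.7%), against 43.1% of the whole Dll list. Of the 17 Sp1 peaks, 13 overlapped a Dll peak (76.5%, 52.7% to 90.4%), against 72.1% of the whole Sp1 list. Since the locus was chosen through regions where both factors have peaks, nothing is read from these shares.

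The strongest Sp1 peak of the locus lay from 17583606 to 17584458, with a score of 27.90 at rank 98.5 of the Sp1 list. Its Dll partner, from 17583518 to 17584456, had a score of 16.51 at rank 89.3. The next Sp1 peaks had scores of 26.03 (17556611 to 17557238, rank 98.1), 24.19 (17570532 to 17571548, rank 97.6) and 18.55 (17604945 to 17605614, rank 94.8). Their Dll partners had scores of 20.68 (17556594 to 17557472, rank 94.5), 16.32 (17570449 to 17571563, rank 89.1) and 12.18 (17604658 to 17605749, rank 79.3). These 4 pairs are the ones that hold the regions used to choose the locus, and each shared between 627 and 1016 bp, which was 61.3% to 91.2% of the Dll peak and at least 99.8% of the Sp1 peak. In all 4 the Sp1 peak ranked above the Dll peak, by 3.67 to 15.5 percentile points. The 3 highest Dll peaks were the partners of the 3 highest Sp1 peaks. The longest Dll peak, from 17570449 to 17571563, was 1114 bp long and is among them.

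Other pairs of *Eip74EF* were weaker or less even. The Sp1 peak from 17612353 to 17612627 had a score of 14.94 at rank 91.2, and its Dll partner, from 17612250 to 17612597, had 5.81 at rank 34.5. The opposite was found from 17569998 to 17570336, where a Dll peak with a score of 15.95 (rank 88.1) overlapped 2 short Sp1 peaks, each with a score of 7.05 (rank 55.7). The peaks without a partner were mostly weak. The 7 such Dll peaks had a median rank of 13.7, and the highest of them, from 17569195 to 17569399, had a score of 9.41 (rank 66.6) and lay 623 bp from the nearest Sp1 peak. The 4 such Sp1 peaks had a median rank of 34.9 and a highest rank of 39.8, a score of 5.83 that 2 of them shared (17572698 to 17572791 and 17614786 to 17614905). Joining peaks of both lists across gaps of up to 1 kb gave 12 blocks, of which 10 held both factors, 2 held Dll alone and 0 held Sp1 alone. A block can hold both factors without an overlap, as from 17614580 to 17614905. Blocks of the whole lists were not counted, and this locus was chosen through regions of both factors. Block counts are thus descriptions at each locus and are not compared between loci. The widest gaps between blocks were 10727 and 9635 bp, and between them lay the block with the strongest Sp1 peak and a lone Dll peak with a score of 4.40 (17590175 to 17590292).

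*Eip75B* carried 32 Dll peaks, the most of the 3 loci, in the longest interval. Of its 32 Dll peaks, 12 overlapped an Sp1 peak (37.5%, Wilson interval 22.9% to 54.7%) and 20 did not, near the 43.1% of all Dll peaks that overlapped one. This share depended on how peaks were counted: it was 60.0% once peaks of a list were joined across gaps of up to 500 bp, and 9.38% where peaks had to share 50% of both. Shares of the whole list counted in these ways are not given, so neither value is set against the 43.1%. Of its 23 Sp1 peaks, 17 overlapped a Dll peak (73.9%, 53.5% to 87.5%), near the 72.1% of all Sp1 peaks. The 20 Dll peaks without a partner had a median rank of 47.1, against 38.0 for all Dll peaks without one. Of the 20, 5 ranked above 75. The share of the whole list above that cut was not counted, so this number is a description. In the whole list, 187 of the 1249 Dll peaks in the top 10% had no partner. The highest of the 20, from 18031497 to 18031654 with a score of 16.27 (rank 88.8), was below the top 10%. It lay 180 bp from an Sp1 peak.

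A dense block of Dll peaks ran from 18003530 to 18012670 on chromosome 3L. In these 9140 bp lay 13 Dll peaks, which covered 65.0% of the sequence, and 6 Sp1 peaks. All 6 Sp1 peaks overlapped Dll, as did 72.1% of all Sp1 peaks. Of the 13 Dll peaks, 5 overlapped Sp1 and 8 did not, where 43.1% of all Dll peaks overlapped Sp1. The block was chosen as the one of the locus with most Dll peaks, so nothing is read from these overlaps. The strongest Dll peak of the block, from 18006444 to 18007042, had a score of 17.08 (rank 90.4) and overlapped 2 Sp1 peaks with scores of 11.09 and 8.32. A Dll peak of 1229 bp, the longest of the locus, lay from 18004438 to 18005667 with a score of 11.42 (rank 76.2) and shared no sequence with an Sp1 peak, the nearest being 785 bp away. The 6 Sp1 peaks had a median rank of 51.1, against 61.6 for the 13 Dll peaks.

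The highest Dll peak of *Eip75B* lay outside that block, from 18030736 to 18031369, with a score of 21.92 (rank 95.6). Its Sp1 partner, from 18030907 to 18031317, had a score of 15.65 (rank 92.0) and lay wholly within it. No other pair of the locus had both peaks above rank 90. The second highest Dll peak was the one of the dense block with rank 90.4, followed by the one from 18031497 to 18031654 that had no partner.

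Of the 5 highest Sp1 peaks of *Eip75B*, 1 was the partner of the highest Dll peak, 2 overlapped weak Dll peaks and 2 overlapped none. The highest Sp1 peak, from 18019082 to 18019420 with a score of 20.64 (rank 96.3), lay 6412 bp from any Dll peak. Another, from 17957961 to 17958282 with a score of 15.06 (rank 91.4), was 3067 bp from the nearest Dll peak. The second highest, from 17966291 to 17966414 with a score of 16.52 (rank 93.3), overlapped a Dll peak with a score of 5.96 (rank 36.4). The Sp1 peak from 18056355 to 18056592 had a score of 15.65 (rank 92.0), and its Dll partner, from 18056351 to 18056445, had 4.17 (rank 3.38), close to the threshold. These 5 are the Sp1 peaks of *Eip75B* in the top 10% of the Sp1 list. In the whole list 14.9% of the 974 Sp1 peaks in the top 10% overlapped no Dll peak, and 5 peaks are too few to compare with that share. Blocks numbered 16, of which 9 held both factors, 4 Dll alone and 3 Sp1 alone, with no share of the whole lists to set beside them.

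At *br*, the overlapping pairs all lay in the left part of the interval. Of its 17 Dll peaks, 6 overlapped an Sp1 peak (35.3%, Wilson interval 17.3% to 58.7%), and of its 12 Sp1 peaks, 10 overlapped a Dll peak (83.3%, 55.2% to 95.3%). Both intervals hold the shares of the whole lists, 43.1% and 72.1%. All 6 and all 10 lay between 1468137 and 1512440 on the X, where 9 of the 17 Dll peaks were found with a median rank of 70.0. Past it, 8 Dll peaks and 2 Sp1 peaks lay between 1515968 and 1590035, and these Dll peaks had a median rank of 36.4 and a highest of 58.6. The 2 Sp1 peaks there had ranks of 42.2 and 78.0, and the 10 before the limit had a median rank of 49.0. The limit was set at the last Dll peak with a partner, so the lack of overlap past it follows from the limit and the contrast is a description. The ranks are given as a description too. Dll peaks without a partner also ranked lower in the whole list (median 38.0 against 69.9), but 3 of the 9 Dll peaks up to the limit had no partner either. Whether the lower ranks past the limit go with the lack of partners was not tested.

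The strongest pair of *br* was at its left end. The Dll peak, from 1468137 to 1469461, had a score of 26.34 (rank 97.9), the highest Dll score at the 3 loci. The Sp1 peak within it, from 1468145 to 1469067, had a score of 18.93 (rank 95.3) and was the only Sp1 peak of *br* in the top 10% of its list. The next Dll peaks had scores of 15.28 (1505046 to 1505695, rank 86.8) and 12.31 (1510541 to 1512440, rank 79.5), and the latter spanned 3 Sp1 peaks. Of these, the peak from 1511091 to 1511264 had a score of 11.09 (rank 82.1), and the peak from 1511363 to 1511530 had 9.68 (rank 75.9). The longest Dll peak of the 3 loci, 2208 bp from 1470827 to 1473035, had a score of 10.06 (rank 70.0) and overlapped 2 Sp1 peaks, with scores of 4.16 and 8.77. A stretch of 28753 bp without a peak followed it.

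In the right part of *br*, the highest peaks were far apart. The Dll peak from 1558931 to 1559210 had a score of 8.09 (rank 58.6), and the Sp1 peak from 1589892 to 1590035 had 10.18 (rank 78.0), 25472 bp from the nearest Dll peak. Of the 11 blocks of *br*, 3 held both factors, 6 Dll alone and 2 Sp1 alone, again without a share of the whole lists. The pairs at 1468145 to 1469067 and at 1511363 to 1511530 hold regions that the study assigned to *Mur2B*, not to *br*. In the RefSeq annotation of Release 6, a later assembly whose coordinates were not used, *br* and its neighbour *dor* lie wholly within the span of *Mur2B*, so the nearest gene at these positions is ambiguous. In the same annotation *Eip75B* holds the smaller genes *CG32192* and *CG42393*, and *Eip74EF* holds none and lies between *CycT* and *Vps60*. The promoters, exons and introns of the 3 genes were not placed on dm3 here.

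Over the 3 loci together, 29 of 67 Dll peaks overlapped an Sp1 peak (43.3%, Wilson interval 32.1% to 55.2%), close to the 43.1% of all Dll peaks. Of the 52 Sp1 peaks, 40 overlapped a Dll peak (76.9%, 63.9% to 86.3%), against 72.1% of all Sp1 peaks. The median rank was 55.5 for member Dll peaks and 51.9 for member Sp1 peaks, against medians of 50.7 and 50.1 for the lists. In the top 10% of their lists were 4 of the 67 Dll peaks, where 10.1% of the list fell, and 11 of the 52 Sp1 peaks, where 9.89% fell. Of these 11, *Eip74EF* had 5, *Eip75B* 5 and *br* 1. Of the 5 at *Eip74EF*, 4 hold the regions that chose the locus, so the count of 11 is a description. By median rank, Sp1 peaks were ordered *Eip74EF* (67.9), *br* (55.0) and *Eip75B* (39.8), and Dll peaks *Eip74EF* (59.1), *Eip75B* (55.5) and *br* (41.8). Ranks within each locus ran from under 13 to over 94 for both factors, so the loci overlapped throughout.

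**Figure D2:**
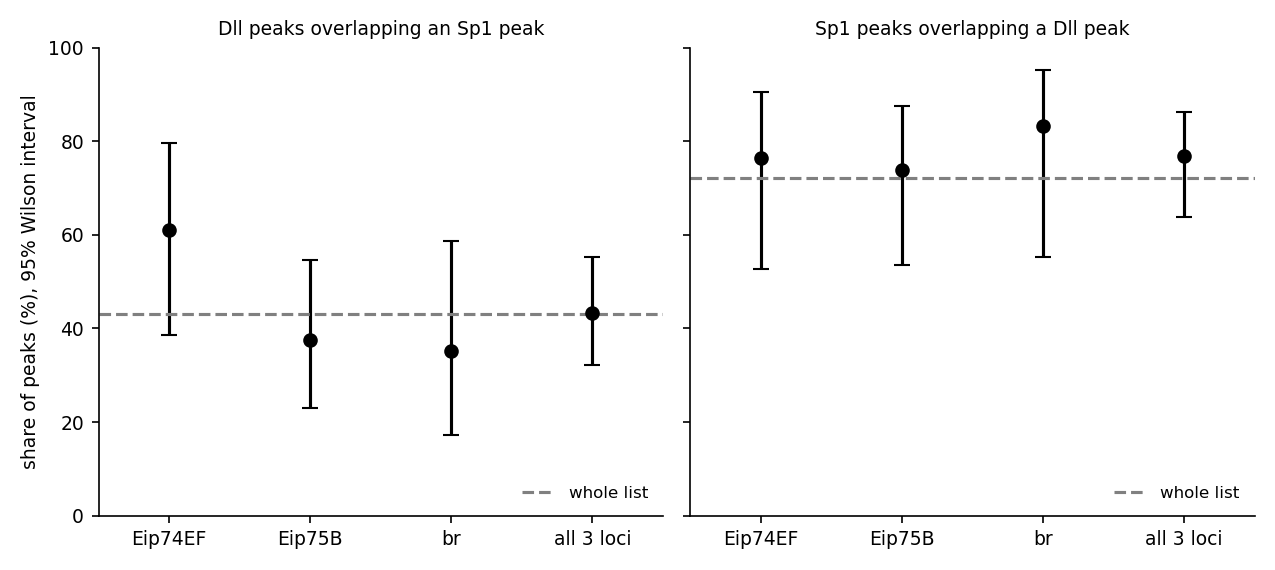
Share of Dll peaks that overlap an Sp1 peak (left) and of Sp1 peaks that overlap a Dll peak (right), in percent, at each locus and at the 3 together. Bars are 95% Wilson intervals and the dashed line is the share in the whole list, 43.1% and 72.1%. The Dll shares lie between 35.3% (*br*) and 61.1% (*Eip74EF*), and the Sp1 shares between 73.9% (*Eip75B*) and 83.3% (*br*).

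Dll peaks with an Sp1 partner had a higher median rank than those without at each locus, as in the whole list. The medians were 81.8 and 13.7 at *Eip74EF*, 60.8 and 47.1 at *Eip75B*, and 77.0 and 36.4 at *br*, against 69.9 and 38.0 over all Dll peaks. Sp1 peaks had the same order at *Eip74EF* (79.3 and 34.9) and *Eip75B* (45.5 and 17.9). At *br* the order was opposite, 49.0 and 60.1, with only 2 Sp1 peaks in the latter group.

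The 40 overlapping pairs of the 3 loci differed in shape. At *Eip74EF* 8 of 13 pairs shared at least 50% of both peaks, at *Eip75B* 3 of 17 and at *br* 1 of 10, against 27.3% of all 7195 pairs. The 8 at *Eip74EF* include the 4 pairs that hold the regions used to choose the locus. Its values here thus rest in part on the peaks that chose it and are descriptions. The Sp1 peak lay wholly within the Dll peak in 10, 15 and 10 pairs, against 80.1% of all pairs. The shared sequence had a median of 255 bp at *Eip74EF*, 106 bp at *Eip75B* and 152 bp at *br*, against 140.0 bp over all pairs. The centres of the paired peaks were a median of 61.0, 75.5 and 235 bp apart, against 106 bp overall. Shared sequence made up 62.5% of the bases under Dll peaks at *Eip74EF*, 20.3% at *Eip75B* and 25.9% at *br*, and 27.7% in the whole series.

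Within pairs, the Sp1 peak ranked higher than its Dll partner in 8 of 13 cases at *Eip74EF*, in 5 of 17 at *Eip75B* and in 2 of 10 at *br*, where 33.3% of all pairs had that order. The 8 at *Eip74EF* again include the 4 pairs that hold the regions used to choose it. The median difference, Sp1 rank minus Dll rank, was 3.67 at *Eip74EF*, −9.82 at *Eip75B* and −14.6 at *br*, against −13.1 over all pairs. The largest difference in favour of Sp1 was 88.6 at the right end of *Eip75B*, and the largest in favour of Dll was −71.0 at *br*, where a Dll peak from 1506718 to 1507795 held an Sp1 peak with a score of 4.04. Pairs that share a Dll peak are not independent of each other, and 9 Dll peaks of the 3 loci had 2 or 3 Sp1 partners.

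**Figure D3:**
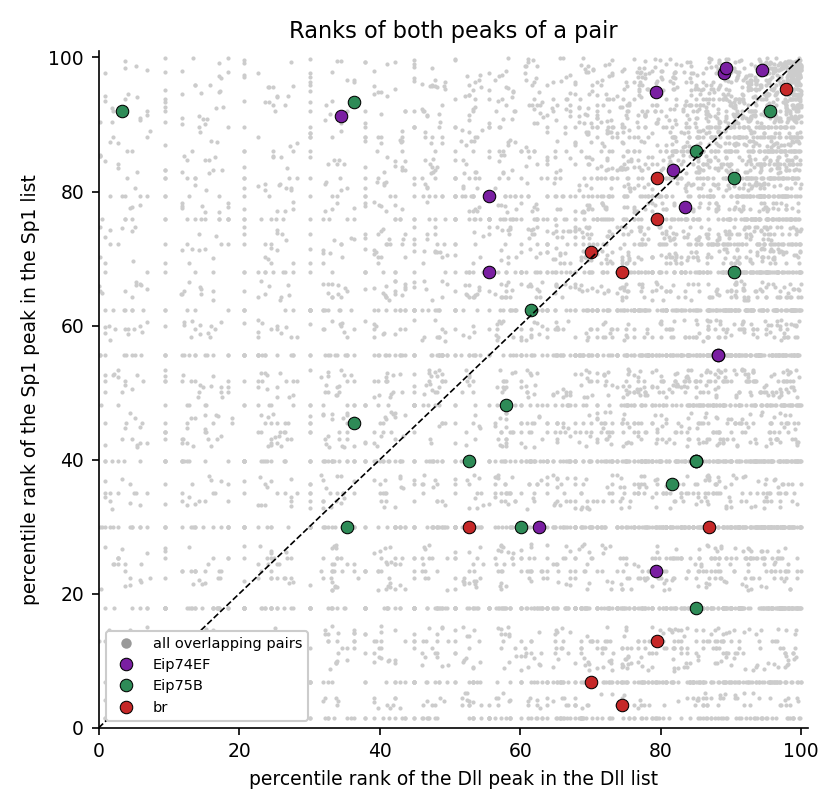
Percentile rank of the Dll peak (horizontal axis) and of the Sp1 peak (vertical axis) for the 40 overlapping pairs of the 3 loci, coloured by locus, over all 7195 pairs in grey. Pairs on the dashed line rank equally in both lists, pairs with the same ranks are drawn on top of each other, and the 4 pairs of *Eip74EF* with Sp1 ranks of 94.8 to 98.5 lie above the line.

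Loci found by the rule used for *Eip74EF* were set beside it. The other 6 genes with 4 or more assigned regions are *Antp*, *CG3473*, *jing*, *olf413*, *ovo* and *shn*. They had 4 to 6 regions, and their spans ran from 55987 bp (*shn*) to 122010 bp (*jing*), against 4 regions and 89003 bp at *Eip74EF*. Densities thus depend in part on how far apart the regions lie. *Eip74EF* was among the sparser of these loci: its 20.2 Dll peaks per 100 kb exceeded only the 19.3 of *olf413*, and its 19.1 Sp1 peaks per 100 kb exceeded only the 18.3 of *ovo*. Its share of Dll peaks with Sp1, 61.1%, lay inside the range of 25% (*ovo*) to 66.7% (*CG3473* and *olf413*). Its highest Dll peak, at rank 94.5, was below the highest of each of the other 6, which ran from 97.9 (*Antp*) to 99.98 (*CG3473*), whereas its highest Sp1 peak, at 98.5, was inside their range, which started at 95.9 (*ovo*). The Sp1 peak ranked higher in 61.5% of the pairs of *Eip74EF* and in 8% (*shn*) to 33.3% (*olf413*) of those of the others. The median difference of 3.67 at *Eip74EF* stood beside −22.6 (*shn*) to −7.36 (*jing*) at the other 6. Single pairs ran from −55.9 to 56.7 at *Eip74EF* and overlapped those of each of the other 6. The difference was not tested, since the peaks have no replicate values. A Dll peak with several Sp1 partners counts once per partner, and the loci were unlike in this. The 13 pairs of *Eip74EF* came from 11 Dll peaks, against 20 pairs from 15 at *Antp* and 25 from 13 at *shn*. How far this moved the values was not tested.

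**Figure D4:**
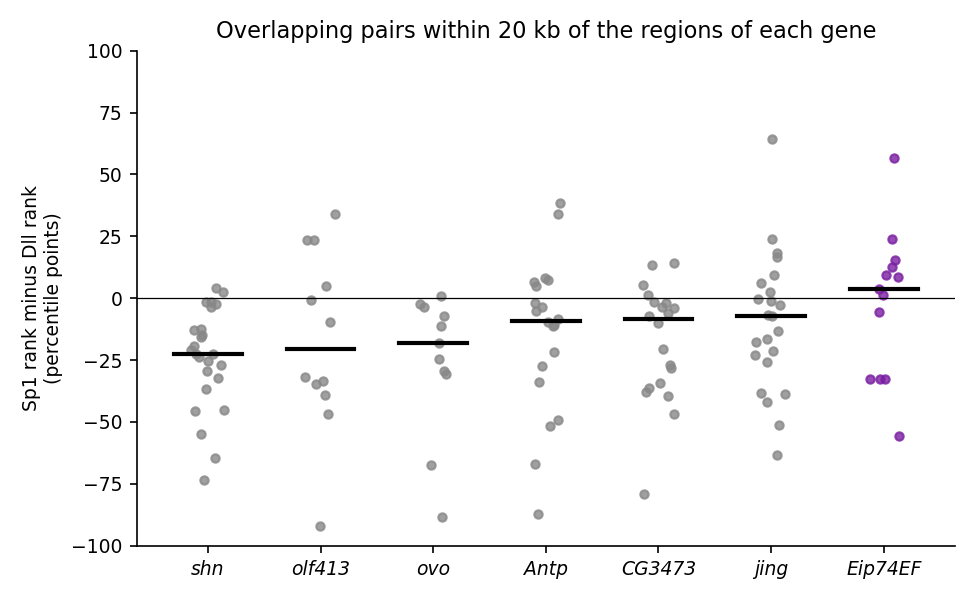
Sp1 rank minus Dll rank, in percentile points, for each overlapping pair of peaks within 20 kb of the regions assigned to each of 7 genes. Points are pairs, spread sideways at random, and black lines are medians, which run from −22.6 at *shn* to 3.67 at *Eip74EF*.

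For the rest of the ecdysone pathway, a list of 36 genes covered uptake and synthesis of the hormone, its receptor, early genes, early-late genes and disc genes induced by it. Positions on dm3 were at hand only for genes to which the study assigned a region, which were *Eip74EF* and 6 others. For these 6, peaks within 20 kb of the assigned regions were counted, not peaks around the gene itself. A gene had 1 to 3 such regions, so the counts are not compared between genes. Like *Eip74EF*, the 6 were chosen through regions where both factors have peaks, so their overlaps and ranks are descriptions. *EcR*, the ecdysone receptor itself, had 21 Dll and 18 Sp1 peaks within 20 kb of its 2 regions. Of these, 11 (52.4%) and 13 (72.2%) overlapped the other factor, against 43.1% and 72.1% of the lists. The highest scores at *EcR* were 22.93 for Dll (rank 96.2) and 17.26 for Sp1 (rank 93.8). *Oatp74D*, which takes ecdysone into cells, had 11 Dll and 7 Sp1 peaks, and all 7 overlapped Dll, as did 72.1% of all Sp1 peaks. *Eip78C*, an early gene for a nuclear receptor, had 11 and 6 peaks, with an Sp1 peak of score 47.20 (rank 99.8), above any Sp1 peak at *Eip74EF*, *Eip75B* or *br*.

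The other 3 genes act outside uptake and reception of the hormone. *ImpL2*, a secreted insulin-binding protein found as a hormone-induced gene of discs, had 9 Dll and 10 Sp1 peaks. *vri*, a bZIP transcription factor, had 11 and 16, and all 11 Dll peaks overlapped Sp1, as did 43.1% of all Dll peaks. *crol*, a zinc finger protein, had 5 and 10, and its Sp1 peaks had a median rank of 92.9. Over the 6 genes with *EcR*, the share of Dll peaks with Sp1 ran from 36.4% (*Eip78C*) to 100% (*vri*), against 43.1% of the list. The share of Sp1 peaks with Dll ran from 60.0% (*ImpL2*) to 100% (*Oatp74D*, *Eip78C* and *crol*), against 72.1% of the list. The highest Sp1 rank ran from 88.1 at *Oatp74D* to 99.8 at *Eip78C* over these 6 genes. For the other 29 genes of the list, which include *Eip75B* and *br*, the absence of an assigned region says nothing on whether peaks lie near them, as *Eip75B* and *br* show.

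Few peaks lay near the limits of the intervals. The member closest to a limit was the Dll peak of *br* from 1468137 to 1469461, 3137 bp inside with a score of 26.34, and at *Eip74EF* and *Eip75B* all peaks lay over 10 kb inside. Just outside, an Sp1 peak from 18080928 to 18081427, 5928 bp past the right limit of *Eip75B*, had a score of 41.86 (rank 99.6), higher than any Sp1 peak among the members. The Dll peak nearest to that limit on the outside, from 18098543 to 18099479, had a score of 16.25 and lay 23543 bp past it. To the left of *br*, a Dll peak lay 3391 bp outside with a score of 6.70 and an Sp1 peak 3455 bp outside with a score of 5.83. At *Eip74EF* the members nearest to the right limit had scores of 6.52 (Dll) and 5.83 (Sp1). The nearest outer Dll peak lay 5253 bp past the right limit (score 4.67), and the nearest outer Sp1 peak 9496 bp past the left limit (score 5.83). Past the right limit, the nearest Sp1 peak lay 11672 bp away with a score of 12.56 (rank 86.1). Scores under 5, near the threshold, were found for 16 of the 67 Dll peaks (23.9%) and 8 of the 52 Sp1 peaks (15.4%), against 23.3% and 22.8% of the lists.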

How the data were processed

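Per the labels and the study's methods, the authors aligned reads with BWA (version not given in the sources used here), merged the ChIP reads of a factor and called peaks against input with MACS2 (2.0.9 in the submitters' processing notes). The methods name triplicate pools but also merged duplicates, and the merged libraries are not named. The authors deposited 1 list per factor in dm3 coordinates, with the −log10 of the q-value of each peak. No reads were processed again. Starts were read as counted from 0 and are printed as deposited.

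Member peaks, overlaps of at least 1 bp, ranks (ties averaged) and gaps were computed with pandas 2.3.3, numpy 2.4.6 and scipy 1.17.1 under Python 3.11.15, and the overlap functions were tested on simulated data. Shares have 95% Wilson intervals and densities exact Poisson intervals. The members, the lists of genes and the alternatives were chosen with earlier results of these data known. Named peaks were, at each locus, the 3 highest of each list, the pairs that hold a region of the study, the highest peak without a partner, the longest Dll peak and the peaks at the limits, and further peaks were named after their values were seen. The blocks and the limit within *br* were also chosen after the data were seen. Of the 36 pathway genes, 35 were found in the RefSeq gene table. Sequences of the peaks, FAIRE-seq peaks and motif positions were not used here.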

Additional observations from a re-analysis of the deposited data

How the results depend on the processing

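No paired analysis was possible because peaks were called on merged libraries, and for the same reason no replicate could be left out. Over the 3 loci together, 52 alternative values stayed within the interval of the reported value or within 1.5 times the count, and 10 did not. With a score of at least 10 in both lists, 22 Dll and 17 Sp1 peaks remained and 58.8% of the Sp1 peaks overlapped Dll. Joining peaks of a list across gaps of up to 500 bp left 39 Dll and 33 Sp1 peaks, and 56.4% of the Dll peaks overlapped Sp1. Without the *Eip75B* locus there were 35 Dll and 29 Sp1 peaks. Where peaks had to share 50% of each other's length, the shares fell to 17.9% for Dll and 23.1% for Sp1. At single loci, sharing 50% of both lengths moved the values furthest. The share of Sp1 peaks with Dll then was 47.1% at *Eip74EF*, 13.0% at *Eip75B* and 8.33% at *br*, and that of Dll peaks with Sp1 was 9.38% at *Eip75B* and 5.88% at *br*. Joining gave 60.0% of Dll peaks with Sp1 at *Eip75B*. With a score of at least 10, the Sp1 density at *Eip74EF* was 4.41 times that of the arm and 42.9% of the Sp1 peaks of *Eip75B* overlapped Dll. Overlap shares of the whole lists at these settings are not given, so the shares here are not set against those of the lists. The median rank of Sp1 members was 42.2 without *Eip74EF* and 67.9 without *Eip75B*, both within its interval. Since the depth is unknown, a missing peak cannot be read as missing binding.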
